A study of Mus musculus with 121 samples.

Results

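Ms4a6c, Ms4a6b, Ly86, F13a1, Ccr2, Cx3cr1, Emb, Mpeg1, Fn1 and Cd14 are 10 genes of the monocyte lineage, taken by name as a marker set from the 23946 genes measured. All 10 were in the table. They were followed in 121 single bone marrow cells of C57BL/6 mice with a Gfi1 allele labelled R412X, across the state that the authors gave each cell and across the run names in the labels. Every cell carries that allele, its genotype is written both as Gfi1-R412X/- and as HTZ, and cells with unmutated Gfi1 were not analysed here. Of the cells, 46 came from a sorted population labelled CD11b+ GMP-P and 75 from one labelled GMP. Both were enriched on CD117 beads, captured on the Fluidigm C1 system and sequenced after SMARTer amplification.

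The states used here held 5 cMoP cells, 38 Mono cells, 11 MP cells, 14 Gran-1 cells, 15 Gran-2 cells and 34 cells in the states Myelo-1 to Myelo-4. Gran-2 and Myelo cells, 49 in all, are given together below as the later granulocytic states. All cMoP and MP cells and 32 of the Mono cells came from GMP and from one run, named R412X-GMP in the labels, and the other 6 Mono cells were CD11b+ GMP-P. A further 13 GMP cells carry run names dated late July and are called late July GMP. All CD11b+ GMP-P cells share one run name, which no GMP cell has, although its digits can be read as the date of the late July GMP runs, so population and run cannot be told apart. No animal is named, so each population counts as 1 sample, no test was possible, and every difference below describes these cells. The state names were given to these same cells, so differences between states describe that annotation.

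Monocytes form in the bone marrow from progenitors that they share with neutrophils. The transcription factor Irf8 favours the monocyte branch, and the repressor Gfi1 favours the neutrophil branch. Young monocytes carry the chemokine receptor Ccr2, by which they leave the marrow toward its ligand Ccl2, and Cx3cr1, the receptor of fractalkine, marks patrolling monocytes and some of their precursors. Ly86, also called MD-1, is the partner that Cd180 needs on the cell surface, and Cd14 passes lipopolysaccharide to the receptor Tlr4. Ms4a6c and Ms4a6b encode membrane proteins of the membrane-spanning 4-domains family, and Emb encodes embigin, a relative of basigin that brings lactate transporters to the membrane. Mpeg1 encodes the pore-forming protein perforin-2, F13a1 the catalytic subunit of coagulation factor XIII, and Fn1 the matrix protein fibronectin.

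The promoters of the 4 members whose windows matched a motif of the interferon regulatory factors (IRF) are shown. They were picked by that match, and each gene was detected in all 5 cMoP cells and in most Mono cells. F13a1 and Emb were detected as widely but had no IRF match, so their windows are not shown. The windows are RefSeq sequence of the mouse build GRCm38.p6, from 250 bases before a transcript start to 50 bases after it, on the strand of the gene, and that build is not the one of the expression values. Ms4a6c lies at chr19:11469118-11469417 and Ms4a6b at chr19:11518309-11518608, both on the plus strand of chromosome 19. Ly86 lies at chr13:37345095-37345394 and Ccr2 at chr9:124101933-124102232, both on the plus strand. The Ccr2 gene starts at 124101918 in the same build, so its window lies inside the gene and belongs to a later transcript start. Capitals mark matches on either strand to GAAANNGAA, a spelling of the IRF element, and to GGAANNGAA, a spelling of the composite element of ETS factors and IRF.
Ms4a6c: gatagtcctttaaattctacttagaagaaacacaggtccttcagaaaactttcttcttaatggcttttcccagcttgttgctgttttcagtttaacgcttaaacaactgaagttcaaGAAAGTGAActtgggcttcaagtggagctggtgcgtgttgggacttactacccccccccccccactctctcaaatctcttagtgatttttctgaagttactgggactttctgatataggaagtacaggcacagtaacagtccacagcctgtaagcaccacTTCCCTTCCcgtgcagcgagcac
Ms4a6b: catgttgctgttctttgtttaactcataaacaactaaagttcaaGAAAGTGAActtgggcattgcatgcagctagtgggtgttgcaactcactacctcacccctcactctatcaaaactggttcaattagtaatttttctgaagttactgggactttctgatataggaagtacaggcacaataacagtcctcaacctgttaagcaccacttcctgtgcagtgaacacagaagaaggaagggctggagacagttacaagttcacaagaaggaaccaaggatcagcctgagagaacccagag
Ly86: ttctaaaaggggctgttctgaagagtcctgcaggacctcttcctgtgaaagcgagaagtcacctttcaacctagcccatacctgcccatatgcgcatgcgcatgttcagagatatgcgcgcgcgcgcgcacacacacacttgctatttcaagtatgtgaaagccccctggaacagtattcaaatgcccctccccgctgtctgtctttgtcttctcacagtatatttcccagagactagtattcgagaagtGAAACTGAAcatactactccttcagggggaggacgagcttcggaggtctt
Ccr2: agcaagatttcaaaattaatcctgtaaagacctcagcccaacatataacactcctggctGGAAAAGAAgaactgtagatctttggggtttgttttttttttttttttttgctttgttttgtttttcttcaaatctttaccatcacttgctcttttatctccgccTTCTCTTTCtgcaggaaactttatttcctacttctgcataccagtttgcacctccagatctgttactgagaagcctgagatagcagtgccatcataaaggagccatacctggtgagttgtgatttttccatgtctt

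Of the 10 members, 8 had a window in the RefSeq table, and Fn1 and Cd14 had none. The IRF spelling starts at base -133 in Ms4a6c, -206 in Ms4a6b, 1 in Ly86 and -86 in Ccr2, counted from the transcript start. It occurs in 8.56% of the 32851 mouse windows of this length. The composite spelling, found in 8.24% of windows, starts at base 28 in Ms4a6c and at base -191 in Ccr2. These spellings differ at their second letter, so no stretch of 9 letters on one strand can match both. The windows of F13a1 held GAGGAA, the core of the PU.1 element that 28.3% of windows hold, and no member window held the C/EBP spelling TTGCNNAA, found in 10.8%. The Gfi1 core AAATCA, present in 14% of windows, occurs in those of Ms4a6c, Ccr2 and Mpeg1. No binding was measured, and these matches are descriptions of the letters.

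Ms4a6c and Ms4a6b are paralogs on chromosome 19. Their promoter windows aligned over 232 columns with 81.0% identity, and their longest transcripts over 1876 columns with 73.5% identity. The IRF match has the same letters in both windows, so the matches of this pair cannot be counted as separate. Of the 1792 stretches of 50 bases in the Ms4a6c transcript, 109 also occur in that of Ms4a6b, and no stretch of 100 bases does. Short reads from such stretches could have been divided between the pair by the authors' counting.

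Most cMoP, Mono and MP cells detected at least 5 of the 10 members, and few Gran-1 and later cells did. A gene is called detected at 1 TPM or more, where TPM is the length-corrected share of a cell's transcripts. All 5 cMoP cells detected at least 5 of the 10 members (exact 95% binomial interval 47.8 to 100%), as did 31 of 38 Mono cells or 81.6% (65.7 to 92.3%) and 8 of 11 MP cells or 72.7% (39 to 94%). Gran-1 had 2 such cells of 14 or 14.3% (1.78 to 42.8%), and the later granulocytic states had 1 of 49 or 2.04% (0.0517 to 10.9%). Per cell, the median was 7 members in cMoP, 6 in Mono, 5 in MP, 3 in Gran-1 and 2 in the later states. Intervals cover counting error only.

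Among Mono cells, 4 of 6 CD11b+ GMP-P cells and 27 of 32 R412X-GMP run cells had at least 5 members. Both Gran-1 cells with 5 members were among the 9 of the R412X-GMP run, and none of 3 CD11b+ GMP-P and none of 2 late July GMP cells in Gran-1 reached 5. The number of genes detected per cell had a median of 4079 in cMoP, 4657 in Mono, 4455 in MP and 4367 in Gran-1, but 2508 in the later states. Among later cells with at least 2000 genes detected, 1 of 35 had 5 members.

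**Figure D1:**
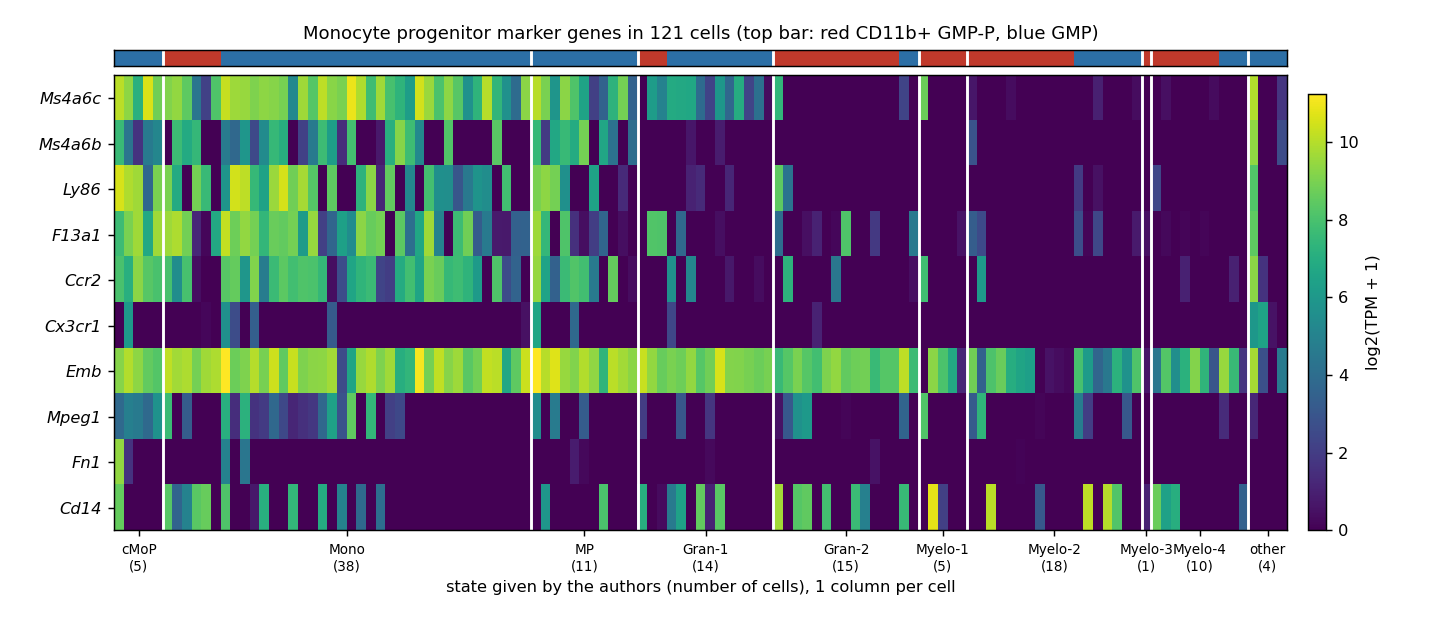
Levels of the 10 members in log2(TPM + 1) in every cell, 1 column per cell, grouped by the authors' state with the number of cells in brackets; the bar on top gives the sorted population, and the 4 cells at the right are MDP, Multi-Lin and HSCP-1. Ms4a6c to Ccr2 stand in most cMoP and Mono columns, Emb spans all the larger states, and Cd14 appears in scattered cells on both sides.

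**Figure D2:**
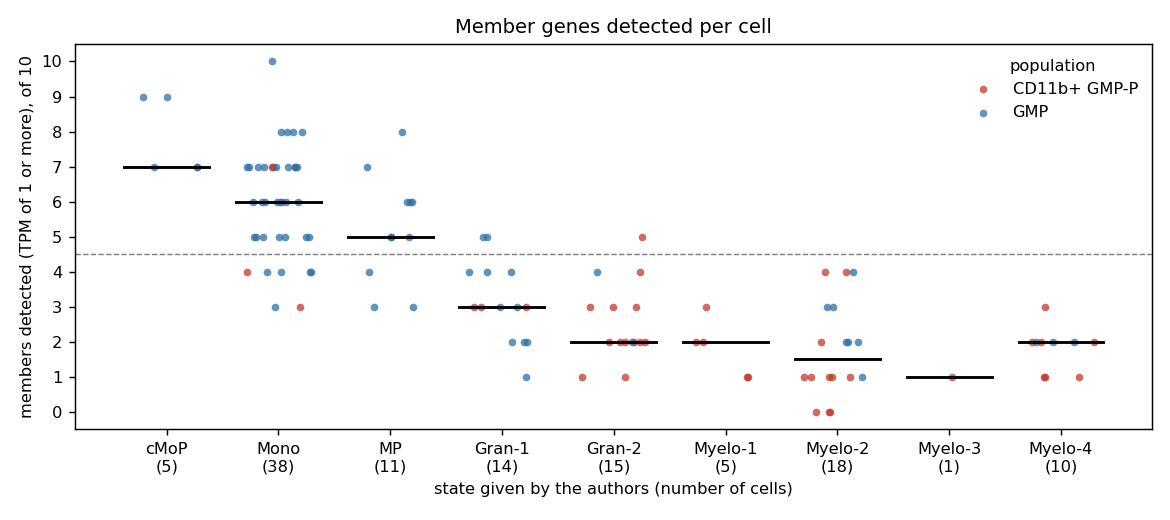
Number of members detected per cell, at a TPM of 1 or more, by state and sorted population; points are cells, black lines are medians and the dashed line separates cells with 5 or more members. All 5 cMoP cells lie above the line, against 2 of 14 Gran-1 cells.

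Ms4a6c, Ms4a6b, Ly86, F13a1 and Ccr2, the first 5 of the members as listed, were then counted as a group. The members were chosen with earlier results of these data known. Emb and Cd14, found in many later cells, are not in the group, so the contrast between states partly reflects the choice. All 5 cMoP cells detected every one of them, 11 of 38 Mono cells did, and 20 further Mono cells detected 4 of the 5. In MP 3 of 11 cells had all 5. No Gran-1 cell of 14 had them all, which allows up to 21.4%, and no later cell of 49 did, which allows up to 6.12%. Of the later cells, 33 had none of the 5.

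**Figure D3:**
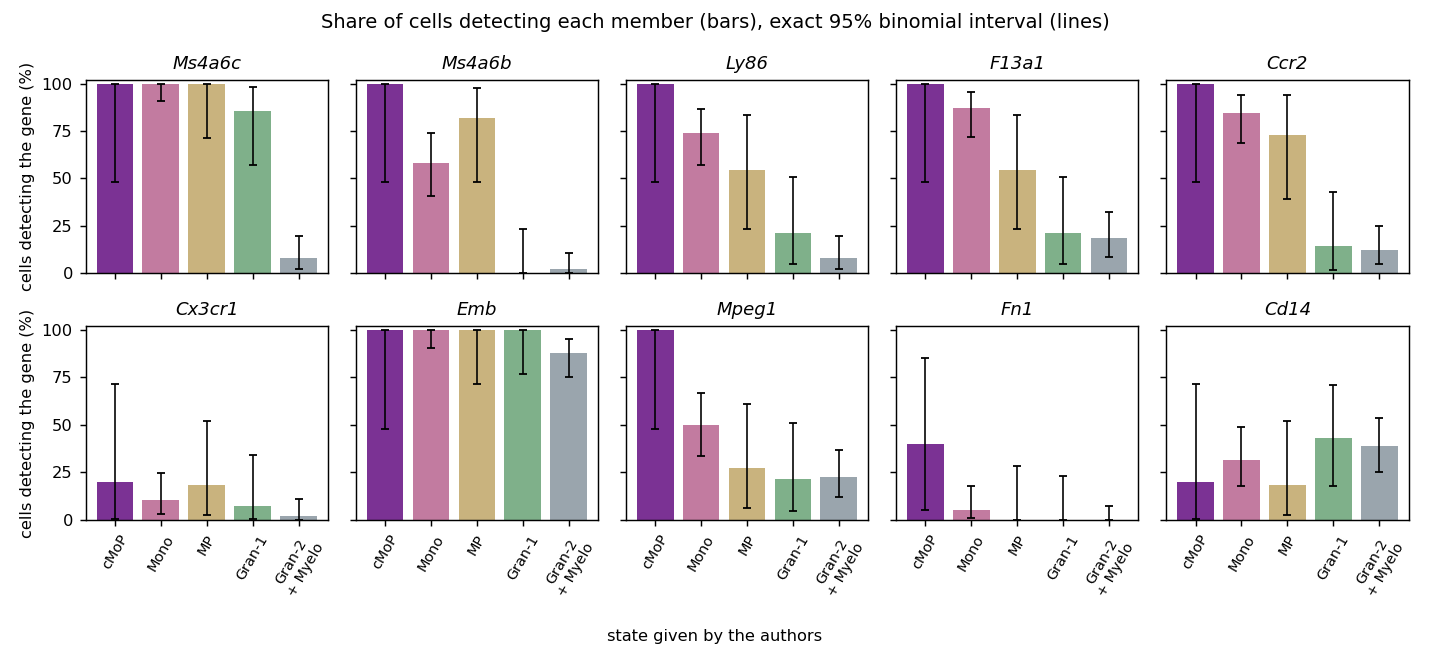
Percent of cells detecting each member by state, with exact 95% binomial intervals over 5 cMoP, 38 Mono, 11 MP, 14 Gran-1 and 49 Gran-2 and Myelo cells. The bars of Ms4a6b, Ly86, F13a1 and Ccr2 drop between MP and Gran-1, that of Ms4a6c drops after Gran-1, and Emb is still in 43 of the 49 later cells.

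Among the receptors, Ccr2 was a gene of most monocyte state cells. Levels of single cells, means and medians are in log2(TPM + 1) here and below. The 5 cMoP cells had 7.11, 8.02, 8.01, 9.31 and 8.33. Mono cells ranged from 0 to 9.11 with a median of 7.35, and 32 of 38 detected it. In MP it was detected in 8 of 11 cells with a median of 6.51, in Gran-1 in 2 of 14 cells and in the later states in 6 of 49. The cMoP cells all lay high, while the Mono and MP ranges both reached 0 and overlapped the Gran-1 range of 0 to 5.66.

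Cx3cr1 was scarce. It was detected in 1 of 5 cMoP cells at 6.05, and in 4 of 38 Mono cells at 5.65, 3.42, 3.23 and 2.62. Those 4 Mono cells all came from the R412X-GMP run, and each also detected Ms4a6c, Ms4a6b, Ly86, F13a1 and Mpeg1. MP had 2 of 11 cells with it, at 6.63 and 3.86. Outside the monocyte states the highest level, 6.53, was in 1 of the 2 Multi-Lin cells, a cell without Ms4a6c, Ms4a6b, Ly86 and F13a1.

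Ly86 mostly followed the monocyte states, and Cd14, counted over both populations, did not. Ly86 stood at 9.91, 8.99, 10.57, 9.66 and 3.74 in the 5 cMoP cells, and its median was 6.15 in Mono (0 to 10.54, detected in 28 of 38 cells) and 1.33 in MP (0 to 9.34, 6 of 11). In Gran-1 it was detected in 3 of 14 cells and never above 1.32, which lies below the Mono median. In CD11b+ GMP-P Gran-2 it was detected in 2 of 13 cells, at 8.46, above the Mono median, and at 4.30. Other later cells reached at most 2.40. Its partner Cd180 was detected in none of the 5 cMoP cells and in 4 of the 32 Mono cells of the R412X-GMP run.

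Cd14 was detected in 1 of 5 cMoP cells, 12 of 38 Mono cells or 31.6% (17.5 to 48.7%) and 2 of 11 MP cells. Gran-1 had it in 6 of 14 cells or 42.9% (17.7 to 71.1%) and the later states in 19 of 49 or 38.8% (25.2 to 53.8%). These shares pool the populations, and the direction differed between them. In the R412X-GMP run Cd14 was detected in 7 of 32 Mono and 5 of 9 Gran-1 cells. In CD11b+ GMP-P it was detected in 5 of 6 Mono and 6 of 13 Gran-2 cells. The highest Cd14 levels among all cells, 10.77, 10.11 and 10.07, were in a Myelo-1 and a pair of Myelo-2 cells. Over the 62 cells of the R412X-GMP run the Pearson r of Cd14 with the mean of the other 9 members was 0.01, against 0.69 for Ms4a6c, 0.65 for F13a1 and 0.64 for Ccr2. These points share a run and a range of states, and r is given as a description.

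The paralogs Ms4a6c and Ms4a6b differed in detection at Gran-1, but their mean levels were lower there by like amounts. In the R412X-GMP run, Gran-1 lay below Mono by 3.77 for Ms4a6c and by 3.38 for Ms4a6b. The Mono mean of Ms4a6b was lower to begin with, 3.55 against 8.51, and so nearer to the detection limit. Ms4a6c was detected in every cMoP, Mono and MP cell and still in 12 of 14 Gran-1 cells or 85.7% (57.2 to 98.2%), but in 4 of 49 later cells or 8.16% (2.27 to 19.6%). The 5 cMoP cells had 9.34, 8.81, 10.10, 7.13 and 10.61, and the median was 9.05 in Mono (2.19 to 10.93) and 4.57 in Gran-1 (0 to 6.95). Ms4a6b stood lower, at 4.31, 5.15, 7.61, 1.64 and 4.59 in the cMoP cells. It was detected in 5 of 5 cMoP, 22 of 38 Mono and 9 of 11 MP cells, and in none of 14 Gran-1 cells, which allows up to 21.4%. Its median was 3.13 and its maximum 9.20 in Mono, and its highest value in Gran-1 was 0.86. Every Mono cell had Ms4a6c, so none could have Ms4a6b without it.

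Emb was detected in nearly all cells, at lower levels in the later states. It was detected in all cMoP, Mono, MP, Gran-1 and Gran-2 cells and in 43 of the 49 later cells. The median was 9.19 in cMoP, 9.43 in Mono, 9.68 in MP, 8.96 in Gran-1 and 8.30 in Gran-2. In the Myelo states it was 6.79 in Myelo-1, 6.28 in Myelo-2 and 7.27 in Myelo-4, with cells at 0 in Myelo-1 and Myelo-2, and the 1 Myelo-3 cell had 0.68. Mono and Gran-1 differed by -0.06 in the R412X-GMP run. Basigin (Bsg), a relative of Emb, averaged 5.68 ± 2.52 in the 32 Mono cells and 7.45 ± 1.35 in the 9 Gran-1 cells of that run (SD over cells).

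Mpeg1 was detected at 4.85, 5.75, 3.84, 4.57 and 3.86 in the 5 cMoP cells. In Mono 19 of 38 cells had it, with a range of 0 to 8.52, and so did 3 of 11 MP, 3 of 14 Gran-1 and 11 of 49 later cells. All cMoP values lay inside the wide Mono range.

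Of the secreted proteins, F13a1 was common and Fn1 nearly absent. F13a1 stood at 9.0, 9.64, 7.69, 9.64 and 6.78 in cMoP, with a median of 7.11 in Mono (0 to 10.20, detected in 33 of 38 cells) and of 1.58 in MP (0 to 9.58, 6 of 11). Gran-1 had 3 cells with it, of which 2 were CD11b+ GMP-P cells at 8.13 and 8.19, inside the cMoP range. Those 2 cells had Ms4a6c at 4.97 and 6.21 but neither Ms4a6b, Ly86 nor Ccr2. In CD11b+ GMP-P Gran-2 it was detected in 4 of 13 cells, and 1 of these had F13a1 at 8.15 with Emb as its only other member. Some other later cells also detected F13a1, at up to 4.63.

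Fn1 was detected in 2 cMoP cells, at 9.41 and 1.64, and in 2 Mono cells, at 5.0 and 4.43. No MP cell of 11 had it, which allows up to 27.3%, and no Gran-1 or later cell did, which allows up to 21.4% and 6.12%. The Mono cell with the higher value was the one cell of the series with all 10 members.

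Co-detection within the 38 Mono cells was uneven. Ms4a6c and Emb were in every cell, so each other member was most often found with them. F13a1 and Ccr2 stood together in 28 cells and only 1 cell lacked both. Each of them was detected in most Mono cells, so these counts say nothing particular about the pair. Ly86 and Ms4a6b stood together in 15 cells, and Ly86 was found in 68.2% of the cells with Ms4a6b and in 81.2% of those without. Mpeg1 was detected more often with Ms4a6b: 16 of the 22 cells with Ms4a6b had Mpeg1 (72.7%), against 3 of the 16 without (18.8%). No rule set in advance picked this pair. Many of the Mpeg1 levels behind it were low, such as 1.47, 1.56 and 1.65, so the contrast depends on the detection limit. For Ly86 the share of cells with Mpeg1 was the same, 50%, with and without it. Cd14 was found at like rates whether Ms4a6b was present (31.8%) or not (31.2%).

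**Figure D4:**
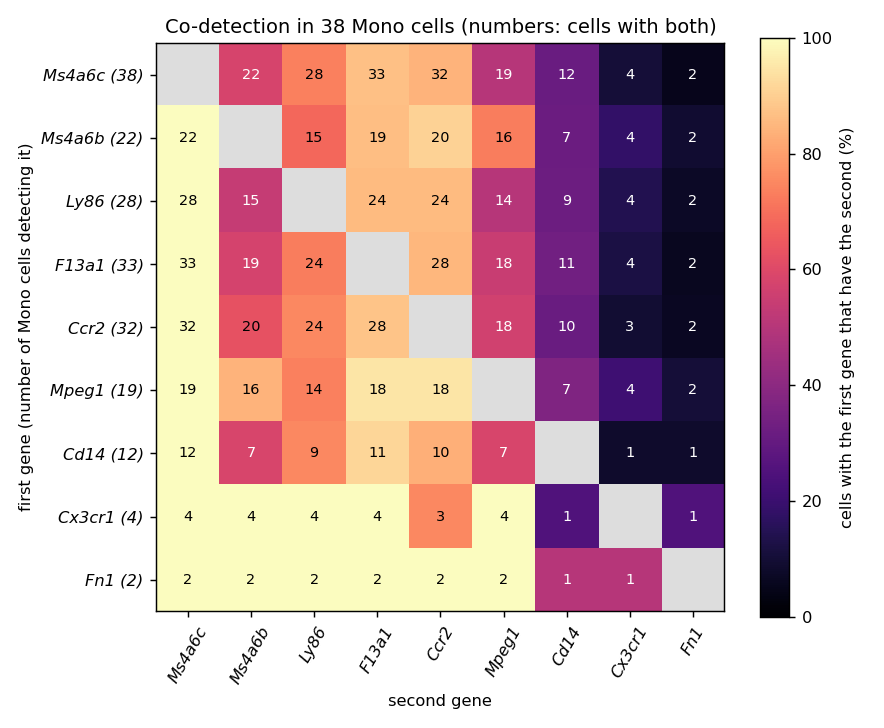
Co-detection of 9 members in the 38 Mono cells; rows are the first gene with the number of cells detecting it, columns the second gene, numbers the cells with both, and colour the percent of the first gene's cells that have the second. Emb, present in every cell, is left out; Mpeg1 and Ms4a6b share 16 cells.

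Mono against MP was compared within the R412X-GMP run, 32 against 11 cells, to see which members mark the step between these states. A member is called higher or lower when its mean log2(TPM + 1) differs by 1 or more, and a gene was kept where one of the states detected it in 10% of its cells or more. F13a1 was higher by 3.15, Ms4a6c by 1.77 and Ly86 by 1.71, so 3 of the 10 members (9 kept) were higher, where 13.4% of all genes kept were. Ms4a6b was lower by the same measure, with 3.55 ± 3.41 in Mono and 4.96 ± 3.14 in MP (SD over cells) and a difference of -1.40, and 8.87% of all genes kept were lower. Ccr2 differed by 0.94, Mpeg1 by 0.77, Cd14 by 0.08, Cx3cr1 by -0.47 and Emb by -0.66. As log2 ratios of mean TPM, Ms4a6c (0.95), Ly86 (0.80) and Ms4a6b (-0.43) fell short of the size called, as did Ly86 (0.98) and Ms4a6b (-0.74) with a pseudocount of 10 in place of 1.

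Around the members, 2 of 6 monocyte factors kept were higher and 0 lower, and Irf8 averaged 7.53 ± 1.49 in these Mono cells and 4.99 ± 3.03 in MP. Of 9 granulocyte genes kept, 1 was higher and 1 lower. Mmp8 averaged 7.35 ± 2.37 in Mono and 4.05 ± 3.55 in MP, and Gfi1 averaged 4.04 ± 3.31 in Mono and 6.18 ± 3.55 in MP. Of 21 other monocyte genes kept, 4 were higher and none lower, and of 14 kept partners of the members, which include receptors, ligands and carriers, 3 were higher and 4 lower. The basophil and mast cell list moved with this comparison, with 3 of 4 genes kept lower in Mono, among them Cpa3 at 0.06 ± 0.23 in Mono and 2.63 ± 3.80 in MP. Its part in the member differences was not tested.

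Mono against Gran-1 in the same run, 32 against 9 cells, set the members at the branch between the monocyte and granulocyte states. F13a1 was higher by 5.72, Ly86 by 5.01, Ccr2 by 4.79, Ms4a6c by 3.77, Ms4a6b by 3.38 and Mpeg1 by 1.47. These are 6 of the 10 members (9 kept), against 7.62% of all genes kept, and the median over the 10 members was 2.42 against -0.14 over all genes kept. Ms4a6b, in 0 of 9 Gran-1 cells, was kept only through Mono, the side where it was high. With a pseudocount of 10 in place of 1, Mpeg1 differed by 0.72. Cd14 went the other way, at 1.35 ± 2.66 in Mono and 3.23 ± 3.76 in Gran-1, a difference of -1.88, and 16.5% of all genes kept were lower by 1 or more. Cx3cr1 differed by 0.21 and Emb by -0.06.

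Of 20 other monocyte genes kept, 10 were higher and 2 lower; Ctss, which encodes the protease cathepsin S, was higher by 6.47, Pld4 by 3.76, and the lysozyme genes Lyz2 by 3.56 and Lyz1 by 2.97. Of 8 monocyte factors kept 3 were higher and 2 lower, led by Irf8 (4.22) and Klf4 (3.25) on one side and Irf5 (-2.09) and Egr1 (-1.77) on the other. Of 15 partners kept 2 were higher and 3 lower: the Ccr2 ligand gene Ccl2 was higher by 2.11 and Tlr2 by 1.34, while Lbp, whose product carries lipopolysaccharide to Cd14, differed by -1.94 and Bsg by -1.77. Of 6 relatives of the Ms4a6 pair kept, Tmem176a (1.73), Ms4a4c (1.24) and Ms4a4b (1.13) were higher and Ms4a3 lower (-1.08). None of 5 other chemokine receptors kept differed by 1 or more.

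Granulocyte genes moved the other way, with 1 of 10 kept higher and 7 lower. S100a8 differed by -6.46, S100a9 by -6.24 and Gfi1 by -4.35, while the collagenase gene Mmp8 was higher by 4.95. The macrophage gene Vcam1 averaged 0.50 ± 1.52 in Mono and 5.59 ± 3.32 in Gran-1, and the histamine synthesis gene Hdc 5.75 ± 3.59 in Mono and 8.58 ± 1.44 in Gran-1. What those lists contribute to the member differences was not tested.

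Several members stood higher in the 5 cMoP cells than in the 32 Mono cells of their run. Ly86 was higher by 3.16, Mpeg1 by 2.58, F13a1 by 2.36, Ccr2 by 2.05, Fn1 by 1.91 and Ms4a6b by 1.11. That is 6 of 10 members higher and none lower, where 15.8% of all genes kept were higher and 20.1% lower. Fn1 was kept only through cMoP, the side where it was high, with 2 of 5 cMoP and 2 of 32 Mono cells. Cx3cr1 differed by 0.73, Ms4a6c by 0.69, Cd14 by 0.37 and Emb by 0.03. A single cMoP cell decided some of these values: without it Fn1 differed by 0.11, Ms4a6b by 0.37 and Cd14 by -1.35. Without the one cMoP cell that had Cx3cr1, that gene differed by -0.48, and without any other one by 1.03. Without the cMoP cell of the lowest level Ms4a6c differed by 1.20, and without a further cell Ms4a6b differed by 0.99. As a log2 ratio of mean TPM, Ms4a6b and Mpeg1 turned to -0.57 and -0.20, and F13a1 (0.84) and Ccr2 (0.87) fell short of 1. With a pseudocount of 10, Ms4a6b differed by 0.20 and Mpeg1 by 0.91.

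The cMoP cell with the highest Fn1 and Cd14, the first of those left out above, also had the highest summed level of the members among cMoP cells, 4944 TPM, with Ms4a6c at 10.10, Ms4a6b at 7.61, Fn1 at 9.41 and Cd14 at 8.61. Genes of the other lists stood on both sides. Of 22 other monocyte genes kept, 9 were higher in cMoP and 2 lower, Cd68 by -1.54 and Cybb by -1.53. Of 16 partners kept, 3 were higher and 2 lower, Ccl2 by -1.77 and Itga4 by -1.71. Of 5 relatives of the Ms4a6 pair kept, 4 were higher and none lower. Tmem176a averaged 7.83 ± 1.51 in cMoP and 4.36 ± 3.51 in Mono, and Tmem176b 8.23 ± 1.22 in cMoP and 5.32 ± 3.55 in Mono. Of 9 monocyte factors kept, Irf5, Spi1 and Irf8 were higher, with differences of 4.08, 1.87 and 1.13. Of 3 stem and multilineage genes kept, Ifitm1 (1.80) and Cd34 (1.56) were higher and Meis1 (-1.41) was lower, and their part in the member differences was not tested. Granulocyte genes kept were lower in 4 of 9 and higher in none, and S100a8 and S100a9 were not detected in any cMoP cell. The 8 dendritic cell markers summed to at most 3.32 TPM in a cMoP cell and were under 1 TPM in 3 of the 5.

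CD11b+ GMP-P Mono cells were compared with GMP Mono cells, 6 against 32, to see whether the members differ between the sorted populations inside one state. Of the CD11b+ GMP-P Mono cells, 5 of 6 had Cd14 or 83.3% (35.9 to 99.6%) with values of 0 to 8.64 and a median of 6.66. In GMP Mono cells it was detected in 7 of 32 or 21.9% (9.28 to 40%), with values of 0 to 8.14 and a median of 0. The means differed by 4.31, and the ranges overlapped. Cd14 was the one member of 10 (9 kept) that was higher, where 17.5% of all genes kept were.

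Ccr2 and Ms4a6c were lower in the CD11b+ GMP-P cells. Ccr2 was detected in 3 of 6 of them, at 7.97, 7.96 and 5.50, against 29 of 32 GMP Mono cells with a median of 7.43, and the means differed by -2.47. Ms4a6c was present in all cells of both. It averaged 6.96 ± 2.96 in the CD11b+ GMP-P cells against 8.51 ± 1.68 in the GMP cells (SD over cells), and differed by -1.55. Without the CD11b+ GMP-P cell of the lowest level (2.19) it differed by -0.60. Members lower by 1 or more were thus 2 of 10, against 17.8% of all genes kept. Both counts are near the shares over all genes and say nothing particular about the members. As log2 ratios of mean TPM, Ccr2 differed by -0.95 and Ms4a6c by -0.85, and Cx3cr1, kept through 4 of the GMP cells, by -1.68. Ms4a6b (0.13), Ly86 (-0.01), F13a1 (-0.10) and Mpeg1 (-0.17) differed by less than 1, with wide ranges on both sides. Leaving out 1 of the 6 cells took Ly86 to 1.07, F13a1 to 1.09 or Mpeg1 to -1.34, depending on the cell.

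Granulocyte genes moved with this comparison. Of 13 kept, 9 were higher in CD11b+ GMP-P Mono cells, with a median difference of 4.33 against -0.08 over all genes kept. Ngp, a secondary granule gene, was detected in 6 of 6 cells at 7.45 ± 2.01 and in none of the 32 GMP Mono cells. S100a8 averaged 10.10 ± 2.86 in these cells against 3.07 ± 4.32 in GMP Mono cells, and Camp 6.20 ± 1.83 in these cells against 0.20 ± 1.15 in GMP Mono cells. Elane, a primary granule gene, differed by 0.39. The 14 listed genes summed to 12571 to 69664 TPM in CD11b+ GMP-P Mono cells and to 6183 to 54855 TPM in GMP Mono cells, and Ltf as well as Ngp was undetected in all of the GMP cells. Their part in the Cd14, Ccr2 and Ms4a6c differences was not tested, and the effect of the sort cannot be told apart from that of the run.

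**Figure D5:**
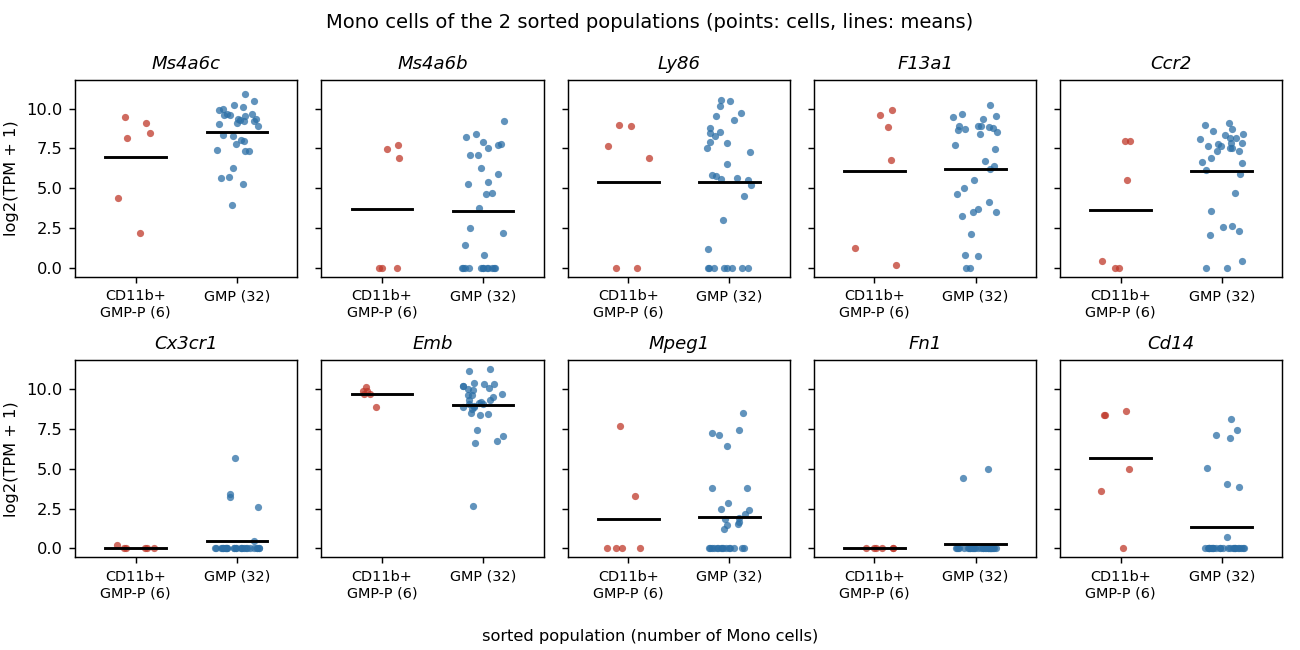
Levels of each member in log2(TPM + 1) in the 6 CD11b+ GMP-P and 32 GMP Mono cells; points are cells and black lines are means. Cd14 is at 0 in 1 of the 6 CD11b+ GMP-P cells and undetected in most GMP cells, while the other panels overlap over most of their range.

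Inside CD11b+ GMP-P, Mono was set against Gran-2, 6 against 13 cells from the same run. Ms4a6c was higher by 6.39, F13a1 by 4.88, Ly86 by 4.41, Ms4a6b by 3.68, Ccr2 by 2.74, Cd14 by 2.05 and Emb by 1.24. That is 7 of the 10 members (8 kept), in a comparison in which 31.3% of all genes kept were higher and 11.8% lower, and no member was lower. The median over all genes kept was 0.43, and that over the 10 members was 2.39. Ms4a6b (0 of 13 Gran-2 cells) and Ms4a6c (1 of 13) were kept only through Mono, the side where they were high. Cd14 was 0 to 8.64 in Mono and 0 to 9.68 in Gran-2, where 6 of 13 cells had it, and as a log2 ratio of mean TPM it differed by 0.28, or by 0.98 with a pseudocount of 10.

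Irf8 averaged 8.15 ± 1.16 in these Mono cells and 1.36 ± 2.72 in Gran-2. S100a8 averaged 10.10 ± 2.86 in Mono and 15.57 ± 1.24 in Gran-2. Granulocyte genes were lower in 11 of 14 kept and higher in none.

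A few cells outside the monocyte states held several members. One CD11b+ GMP-P Gran-2 cell, the only later cell with 5, had Cd14 at 9.68, Ly86 at 8.46, Emb at 7.61, Ms4a6c at 7.39 and F13a1 at 3.99. It also had Irf8 at 8.23, beside S100a8 at 16.13, Ngp at 15.05 and 3974 genes detected. One CD11b+ GMP-P Myelo-1 cell had Ms4a6c at 8.71, Mpeg1 at 8.21 and Ccr2 at 7.79 and lacked Emb. Whether such wells held 1 cell was not tested.

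The Gran-1 cells with 5 members were a different mixture. Beside Emb, one had Ms4a6c at 6.88, Ccr2 at 5.66, Cd14 at 4.58 and Cx3cr1 at 2.40, with Csf1r, the receptor of macrophage colony-stimulating factor, at 7.79 and Gfi1 at 9.34. The other had Ms4a6c at 6.77, Cd14 at 6.43, F13a1 at 3.79 and Mpeg1 at 3.01, with Gfi1 at 8.29. The single MDP cell had 8 members, with Ms4a6c at 9.94, Ms4a6b at 9.39, Ccr2 at 9.31, F13a1 at 8.45, Ly86 at 8.18 and Cx3cr1 at 5.97.

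Genes whose pattern was most like the members were sought over the 62 cells of the R412X-GMP run, among 7357 genes detected in at least 20% of them. The highest Pearson r with the mean of the 10 members was 0.66 for Ctss, followed by Cd302 (0.54), Vrk1 (0.53), Prdx4 (0.53) and Ly6c2 (0.53), which encodes the surface protein Ly6C of inflammatory monocytes. The lowest were -0.72 for Cd63, -0.67 for Cd24a, -0.57 for S100a8, -0.55 for Fli1 and -0.52 for Pglyrp1. Ctss averaged 8.36 in cMoP, 7.11 in Mono, 4.78 in MP and 0.63 in Gran-1, and Cd63, which encodes a granule membrane protein, 0.39 in cMoP, 5.82 in Mono, 9.03 in MP and 11.11 in Gran-1. The mean of the members had an r of 0.06 with the number of genes detected in these cells.

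Inside the 32 Mono cells of that run, the r with the mean of the other 9 members was 0.51 for Fn1, which rested on 2 cells, 0.46 for Mpeg1, 0.44 for Cx3cr1, which rested on 4 cells, and 0.38 for F13a1. It was 0.34 for Ms4a6c, 0.33 for Ccr2, 0.23 for Ly86, 0.20 for Emb, 0.14 for Cd14 and 0.10 for Ms4a6b. These values describe 1 run, and a value of 0 in a cell can be a transcript that was missed.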

How the data were processed

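Single-cell RNA libraries of 121 cells were analysed. The submitters' processing notes name Bowtie2, RSEM and build mm9, with roles and versions not given in the sources used here. The deposited table holds log2(TPM + 1) of the authors for 23946 genes, with 81.7% of values at 0. TPM keeps no read numbers, so the depth of each cell is unknown. A second table deposited by the authors gives each cell's state, used as written.

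Genes were called detected at a TPM of 1 or more. Differences are of mean log2(TPM + 1), with a pseudocount of 1, and understate changes of low genes. A gene was kept where one side detected it in 10% of its cells or more, and a difference of 1 was called. No p-value was computed, since cells are not replicates and no animal is named. Shares carry Clopper-Pearson 95% intervals, and a share of 0 the limit set by 3 cells. The members and gene lists were chosen with earlier results of these data known. All members were named, with up to 4 genes of a list by difference between Mono and Gran-1 and the 5 genes of highest and lowest r. Genes outside that rule were chosen after their values were seen. They were Cd180, Spi1, Tmem176b, Csf1r, Ngp, Camp, Elane, Ltf, Cd68, Cybb, Itga4, Cd34, Ifitm1 and Meis1. So were the Irf8, Gfi1, Mmp8, Cpa3 and S100a8 values of other comparisons. Alternatives changed the detection limit, scaling, pseudocount and call, used ratios of means, single runs or cells with at least 2000 genes, or left out cells. Only the difference of means, with differences planted in resampled cells, and the correlation formula were checked on simulated data. Calculations used Python 3.11.15, numpy 2.4.6, pandas 2.3.3, scipy 1.17.1 and biopython 1.88.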

Additional observations from a re-analysis of the deposited data

How the results depend on the processing

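Of the shares of cells with at least 5 members, those of cMoP, Mono and MP stayed within their intervals at a TPM of 10, at any TPM above 0 and in cells with at least 2000 genes detected. The Gran-1 share was 0% at a TPM of 10, in 3 CD11b+ GMP-P cells alone and in 2 late July GMP cells alone, and the share in later states was 0% in 11 late July GMP cells and in 1 R412X-GMP run cell. With a difference of 2 in place of 1, the members higher in Mono than in MP were 1 instead of 3, and those lower in CD11b+ GMP-P Mono than in GMP Mono 1 instead of 2. Leaving out single cells gave 1 to 3 members lower in CD11b+ GMP-P Mono. It gave 5 to 8 members higher in cMoP than in Mono, and 7 higher in Mono than in Gran-2 each time. Apart from the ratio of mean TPM, given next, the remaining alternatives kept these counts within 1.5 times. As a log2 ratio of mean TPM, cMoP minus Mono reversed to -0.57 for Ms4a6b and to -0.20 for Mpeg1, and the ratio gives most weight to the cells with the highest level. With that ratio 2 members were higher in Mono than in MP, F13a1 and Mpeg1, and 1 instead of 2 was lower in CD11b+ GMP-P Mono, Cx3cr1. Recomputing every member difference under each setting gave 200 values with no single cell left out. Of these values, 177 stayed on their side of the threshold, 21 crossed it and 2 reversed. Small numbers of cells, 5 in cMoP and 6 in CD11b+ GMP-P Mono, and unknown depth limit every value.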
